A study of Mus musculus with 4 samples.

Results

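The Id inhibitors and E proteins described here are 6 genes, Id1, Id2, Id3, Id4, Tcf4 and Tcf12, among 34315 features of the deposited count table. Each was taken by its symbol and matched 1 row, and no row overlapped another feature of the table. The 6 genes were chosen by measured values, with earlier results of these data known: their counts in the wild-type libraries and their mean count in the arm labelled knockout. Those values are therefore given as a description, with no test of the difference between arms. Each had a mean of at least 10 normalised counts over both arms, the minimum used here for a measured gene, but Id4 reached it through the knockout arm alone.

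The cells were haematopoietic stem cells (HSCs), from which all blood lineages are renewed in the bone marrow, and their polyA-selected RNA was sequenced. The arm labelled Dnmt3a-KO, in which the de novo DNA methyltransferase Dnmt3a is named as knocked out, enters only as the authors' mean count over 4 libraries, with a log2 fold change and a p-value. The wild-type arm is a set of 4 libraries from C57BL/6 mice that the labels call technical replicates of 1 biological replicate, whereas the series' design text speaks of a duplicate. In both arms the cells were freshly sorted as SP-KSL-CD150+, where SP stands for side population, cells that pump out a DNA-binding dye. Not given in the sources used here are the deleted allele, the way it was deleted, the age and number of the mice and the strain of the knockout mice.

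The wild-type libraries held 40709659 to 47408552 counts. Libraries 3 and 4 agreed closely with each other, with a median chi-square per degree of freedom of 0.682 over features, and so did libraries 1 and 2, at 0.763, where counting noise alone gave 0.454. Libraries from different pairs gave medians between 11.99 and 12.95. Libraries 3 and 4 are called pair A below, and libraries 1 and 2 pair B. Each is counted as 1 value, and a spread over wild type is an SD over the pairs (n = 2), which may be technical. Normalised counts are counts divided by a size factor of the library, and the knockout mean of the authors was brought to the same scale. Dnmt3a itself stood at 8424 normalised counts in the knockout arm, 5304 in pair A and 8399 in pair B, a count over the whole gene that cannot check the label where shortened transcripts persist. All 10 HSC markers examined, among them Kit, Procr and Slamf1, were measured in both arms. None was called different in the authors' deposited table, where 3.15% of all features tested were called higher and 3.7% lower. Without a call, levels could still differ. Procr stood at 21292 normalised counts in the knockout arm, 4894 in pair A and 2964 in pair B. Hlf stood at 9511 in the knockout arm, 40042 in pair A and 28976 in pair B.

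Helix-loop-helix proteins act as dimers. E proteins such as Tcf4 and Tcf12 carry a basic stretch beside the helix-loop-helix, with which their dimers bind the E-box, a site read CANNTG. Id proteins have the helix-loop-helix but no basic stretch, so an E protein paired with an Id protein is held off DNA. In blood, E proteins promote lymphoid development and also pair with the stem cell factors Tal1 and Lyl1, and Id genes are well known targets of bone morphogenetic protein (BMP) signalling through Smad proteins.

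Id2, Id3 and Id4 had entries among the RefSeq promoter sequences (build GRCm38.p6), which also hold Tcf12, so that 4 of the 6 members were matched. The windows of Id3 and Id4, which were called higher in the knockout arm, and of Id2, which was not, are shown so that their letters can be compared. Each line gives the 250 bases before the annotated start, 5′ to 3′ on the strand of the gene. Capitals mark CCAAT (the CCAAT box), TGACG (the core of a cAMP response element) and CANNTG (the E-box), each searched on both strands. The Id3 window is chr4:136143572-136143821 on the plus strand, the Id4 window chr13:48260866-48261115 on the plus strand and the Id2 window chr12:25096093-25096342 on the minus strand.
Id3: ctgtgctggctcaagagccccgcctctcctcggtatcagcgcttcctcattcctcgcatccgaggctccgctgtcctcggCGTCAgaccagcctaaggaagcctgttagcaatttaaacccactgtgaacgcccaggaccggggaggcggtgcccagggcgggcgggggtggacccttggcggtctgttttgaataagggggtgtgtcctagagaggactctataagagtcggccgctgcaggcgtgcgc
Id4: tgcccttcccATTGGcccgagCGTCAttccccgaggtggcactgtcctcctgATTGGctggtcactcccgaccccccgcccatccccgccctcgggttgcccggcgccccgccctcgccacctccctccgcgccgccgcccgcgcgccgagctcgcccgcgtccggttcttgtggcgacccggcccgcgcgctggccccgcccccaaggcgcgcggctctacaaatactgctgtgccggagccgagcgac
Id2: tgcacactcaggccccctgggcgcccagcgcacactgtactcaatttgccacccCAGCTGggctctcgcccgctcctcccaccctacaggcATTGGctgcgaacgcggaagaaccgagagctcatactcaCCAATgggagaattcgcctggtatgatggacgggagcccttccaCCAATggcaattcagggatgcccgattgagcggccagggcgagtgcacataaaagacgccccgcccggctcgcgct

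CCAAT was found 2 times in the Id4 window, 3 times in the Id2 window and 0 times in the Id3 window, and 33.8% of all 32851 promoter windows of this length hold it. TGACG was found 1 time each in the Id3 and Id4 windows and 0 times in the Id2 window, against 17.8% of all windows. Among the windows shown, an E-box was found 1 time, in the Id2 window, against 66.2% of all windows. Tcf12 had windows 1, 2 and 3, not shown, with 1, 1 and 0 E-boxes. GGCGCC, a sequence read by BMP-activated Smad proteins, occurred 1 time each in the Id4 and Id2 windows, against 9.59% of all windows, and GCGNGGGCG, the site of Egr factors, 2 times in the Id4 window, against 4.7%. No 2 of these matches overlapped. CG dinucleotides, the substrate of DNA methyltransferases, numbered 35 in the Id4 window and 18 each in the Id3 and Id2 windows, where the median window holds 6. Matches describe letters only, and no binding or methylation was measured here.

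Of the 6 members, 3 were called higher in the arm labelled knockout in the authors' deposited table, all of them Id genes, and 0 were called lower, where a call is an adjusted p under 0.05. Over all 21778 features tested, 3.15% were called higher and 3.7% lower. Since the members were picked with this comparison known, nothing is read from the count. The authors' adjusted p also rests on wild-type libraries labelled technical replicates. If that label holds, it does not measure a spread between mice.

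Id3, which restrains E proteins in developing lymphocytes (chromosome 4, 135699737 to 135701307, mm9), had the largest difference of the 6. It stood at 1736 normalised counts in the knockout arm, against 87.8 and 90.2 in the wild-type libraries 3 and 4 (pair A) and 9.47 and 11.5 in libraries 1 and 2 (pair B). The knockout mean lay far above every wild-type library, and the wild-type pairs were themselves well apart. The authors' deposited table gives a 33.6-fold rise with an adjusted p of 2.4e-05, which ranks 87 among 685 called rises. The fold depends on the pair it is set against, at 19.5 over pair A and 165 over pair B.

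Id1, the family member best known as a BMP target (chromosome 2, 152562010 to 152563146, mm9), followed the same order of groups. It stood at 1195 normalised counts in the knockout arm, against 206 and 182 in pair A and 55.7 and 57.6 in pair B. The authors' deposited table gives a 9.42-fold rise with an adjusted p of 0.00799. Over pair A alone the ratio was 6.16, and over pair B alone it was 21.1.

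Id4, a member best studied in the nervous system and in spermatogonial stem cells (chromosome 13, 48356796 to 48359405, mm9), was near silent in wild type. It stood at 72.8 normalised counts in the knockout arm, against 8.59 and 1.88 in pair A and 7.36 and 9.42 in pair B. These wild-type values rest on 9, 2, 7 and 9 reads, in that order, and the exact Poisson 95% intervals of 2 and 9 reads are 0.242 to 7.22 and 4.12 to 17.1, so the wild-type libraries cannot be ordered for Id4. The authors' deposited table gives a 9.37-fold rise with an adjusted p of 0.0136. The ratio of all 221 knockout reads to 27 wild-type reads has an exact binomial 95% interval of 7.25 to 16.8 after scaling. Intervals of this kind leave out everything but counting error. They may be too narrow even for that, because copies made by PCR are not separate molecules.

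Id2, which is needed for natural killer and other innate lymphoid cells (chromosome 12, 25778664 to 25780957, mm9), was the most abundant Id gene in wild type and was not called. It stood at 665 normalised counts in the knockout arm, against 588 and 583 in pair A and 329 and 304 in pair B. In the authors' deposited table the log2 fold change of Id2 was 0.56 (adjusted p 0.868). The knockout mean lay above every library on this scale. Scaled by library totals instead it was 529, below the highest wild-type library at 576.

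None of the E protein genes was called in either direction. Tcf4, the E protein that plasmacytoid dendritic cells depend on (chromosome 18, 69504146 to 69847621, mm9), stood at 10715 normalised counts in the knockout arm, against 7255 and 6965 in pair A and 6445 and 6486 in pair B. In the authors' deposited table the log2 fold change of Tcf4 was 0.66 (adjusted p 0.826). The knockout mean lay above every wild-type library, as it did for 38.6% of the 17685 measured features.

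Tcf12, also called HEB and known for its part in T cell development (chromosome 9, 71692059 to 71959626, mm9), stood at 7475 normalised counts in the knockout arm, against 9387 and 9369 in pair A and 7892 and 7817 in pair B. In the authors' deposited table the log2 fold change of Tcf12 was -0.20 (adjusted p 0.975). The knockout mean lay below every library, as it did for 40.1% of measured features. The gap to pair B, a ratio of 0.952, was smaller than the gap between the wild-type pairs.

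The remaining E protein gene, Tcf3, whose products are E12 and E47, is no member but completes the family. It stood at 5513 normalised counts in the knockout arm, against 6574 and 6575 in pair A and 8214 and 8208 in pair B. In the authors' deposited table the log2 fold change of Tcf3 was -0.42 (adjusted p 0.918). Scaling by library totals moved the median log2 ratio of all measured features by -0.34 and shifted every member by about as much, with the sign kept for all 6.

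**Figure D1:**
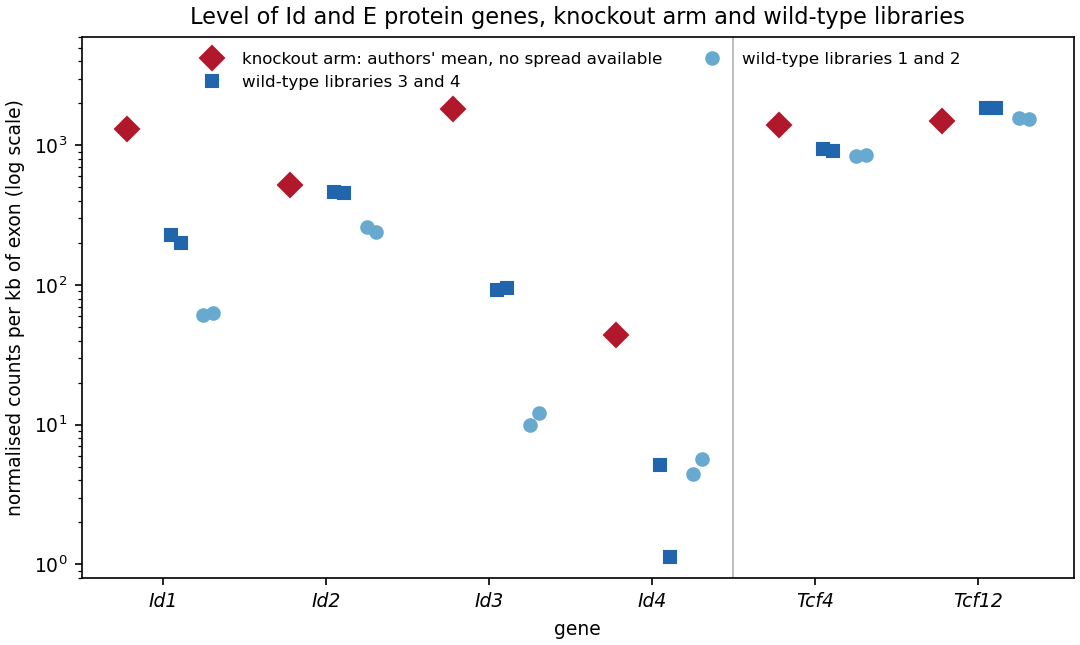
Levels of the 6 genes in normalised counts per kb of exon on a log axis, with the authors' knockout mean as a diamond and each wild-type library as a square (libraries 3 and 4) or a circle (libraries 1 and 2). The knockout means of Id1, Id3 and Id4 stand well above all wild-type points, while those of Id2, Tcf4 and Tcf12 lie close to them.

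Levels between genes were compared per kb of exon. In wild type, Tcf12 averaged 1710 ± 214 normalised counts per kb and Tcf4 886 ± 59.5 (SD over the pairs, n = 2). Among the Id genes, Id2 averaged 355 ± 150, Id1 138 ± 107, Id3 52.3 ± 58.4 and Id4 4.11 ± 1.35 on the same scale. This order, Tcf12, Tcf4, Id2, Id1, Id3, Id4, was that of each of the 4 libraries. Within a library, Id3 was 0.162 to 0.473 times Id1 per kb, although Id3 in pair A, at 93.6 per kb, exceeded Id1 in pair B, at 62.3. Id3 and Id4 were closest in pair B, where 20 reads of Id3 and 16 of Id4 gave a ratio of 2.18 per kb, with an exact binomial 95% interval of 1.07 to 4.50.

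The order was another one in the knockout arm, for which no spread is at hand. Id3 led at 1827 normalised counts per kb, followed by Tcf12 at 1484, Tcf4 at 1399, Id1 at 1315, Id2 at 524 and Id4 at 44.0. Id3 thus held the first place of the knockout order and the fifth of the wild-type order. Against all measured features, the level of Id3 per kb lay at percentile 85.1 in the knockout arm and 24.0 in wild type. Id1 lay at percentile 78.8 in the knockout arm and 34.8 in wild type, Id4 at 23.7 in the knockout arm and 3.35 in wild type, and Id2 at 58.9 in the knockout arm and 50.2 in wild type. Tcf4 lay at 80.1 in the knockout arm and 72.9 in wild type, and Tcf12 at 81.2 in the knockout arm and 87.4 in wild type.

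The make-up of the Id pool differed with these levels. Id2 made up 14.1% of the summed Id level per kb in the knockout arm, against 59.8% in pair A and 76.1% in pair B. Id3 made up 49.3% in the knockout arm, against 12.1% in pair A and 3.37% in pair B. Id1 made up 35.4% in the knockout arm, against 27.7% in pair A and 19.0% in pair B. Id4 was a small part throughout, at 1.18% in the knockout arm, 0.409% in pair A and 1.55% in pair B.

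Summed over the 4 genes, the Id level was 3710 normalised counts per kb in the knockout arm, against 772 in pair A and 328 in pair B. Tcf4 and Tcf12 together held 2882 per kb in the knockout arm, against 2790 in pair A and 2403 in pair B. The Id sum was therefore 129% of the E protein sum in the knockout arm, against 27.7% in pair A and 13.6% in pair B. With Tcf3 among the E proteins it was 83.5% in the knockout arm, 16.6% in pair A and 6.93% in pair B. In counts not divided by exon length, where the long E protein transcripts weigh more, the Id sum was 20.2% of that of Tcf4 and Tcf12 in the knockout arm and 4.11% in wild type. Such a percentage is taken within an arm or library, so the scale between arms does not enter it. It counts RNA and not protein, and no dimers were measured. The levels of Tcf4 and Tcf12 lay nearest to each other in the knockout arm, with Tcf4 at 0.943 times Tcf12 there, against 0.499 times in pair A and 0.541 times in pair B.

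**Figure D2:**
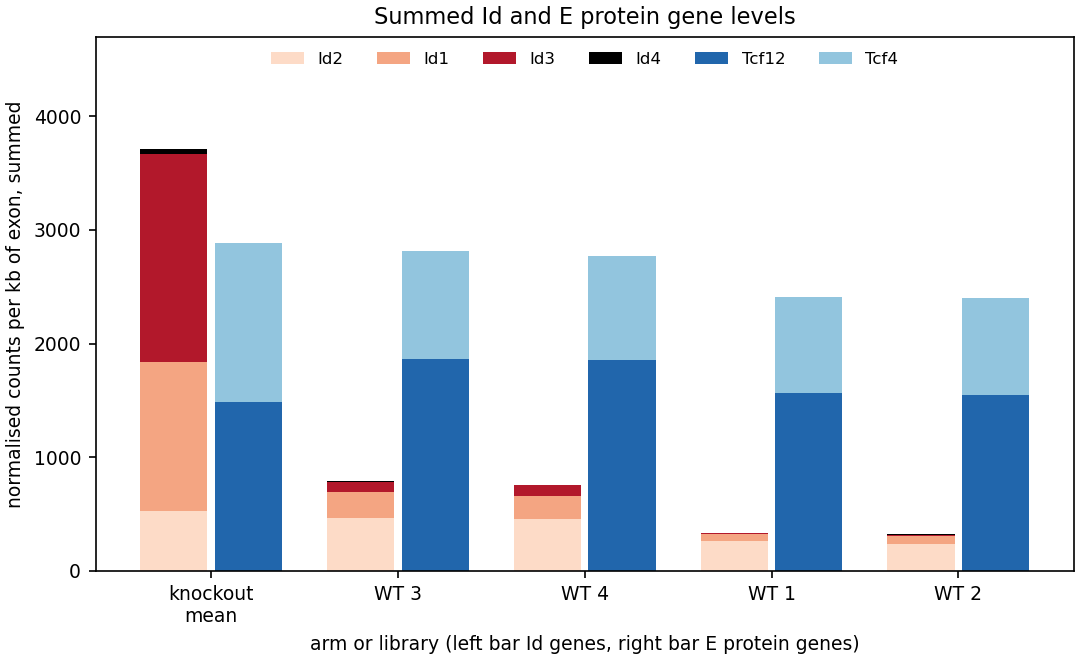
Summed levels of the Id genes (left bar) and of Tcf4 and Tcf12 (right bar) in normalised counts per kb of exon, for the authors' knockout mean and for each wild-type library, on a linear axis from 0. The Id bar exceeds the E protein bar in the knockout mean, at 3710 against 2882, and is the shorter of the pair in all 4 wild-type libraries. Tcf3 is not drawn, and with it the E protein sum in the knockout mean is 4446, above the Id sum.

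The wild-type pairs are not labelled groups, so their difference was described and not tested. Id3 was 8.48-fold higher in pair A than in pair B, Id1 3.43-fold and Id2 1.85-fold. Tcf12 was 1.19-fold and Tcf4 1.10-fold higher. In all 5 genes both libraries of pair A exceeded both of pair B, as they did for 42.3% of measured features. A ratio of at least 2, which Id1 and Id3 reached, was found for 3.57% of measured features. Id4 had a ratio of 0.623, with a counting interval of 0.260 to 1.42 that includes no difference. The log2 difference of Id4 was -0.68 with all libraries, 0.03 without library 4 and its 2 reads, and -2.16 without library 3.

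Immediate early genes, which respond within minutes to signals and to cell handling, moved with Id1, Id2 and Id3 between the pairs. All 25 measured rows of that list were higher in pair A, with a median log2 difference of 4.15, where all tested features with a mean of at least 10 had a median of 0.02. Their summed level was 291697 normalised counts in the knockout arm, 361791 in pair A and 34182 in pair B. The knockout sum lay between the pairs, but the rows differed. In 12 of the 25 the knockout mean lay above both pairs, in 11 it lay between them and in 2 below both. Id1 and Id3 lay above both pairs too, but a knockout mean above every wild-type library was found for 38.6% of measured features. Nr4a1 stood at 64126 in the knockout arm, 18339 in pair A and 394 in pair B, and Egr1 at 10275 in the knockout arm, 70737 in pair A and 2135 in pair B. Of the 25 rows, 5 were called higher and 3 lower in the authors' deposited table. All 5 rows called higher lay above both pairs, but of the rows called lower only 1, Myc, lay below both. The called rows with the largest changes were Klf2, at -4.13, Fosl2, at 3.89, Egr3, at 3.48, and Klf4, at 3.05 (log2 fold changes in the authors' deposited table). Klf2 stood at 117 normalised counts in the knockout arm, 4082 in pair A and 51.4 in pair B, so its direction turns with the pair. The part of this response in the Id values was not tested.

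**Figure D3:**
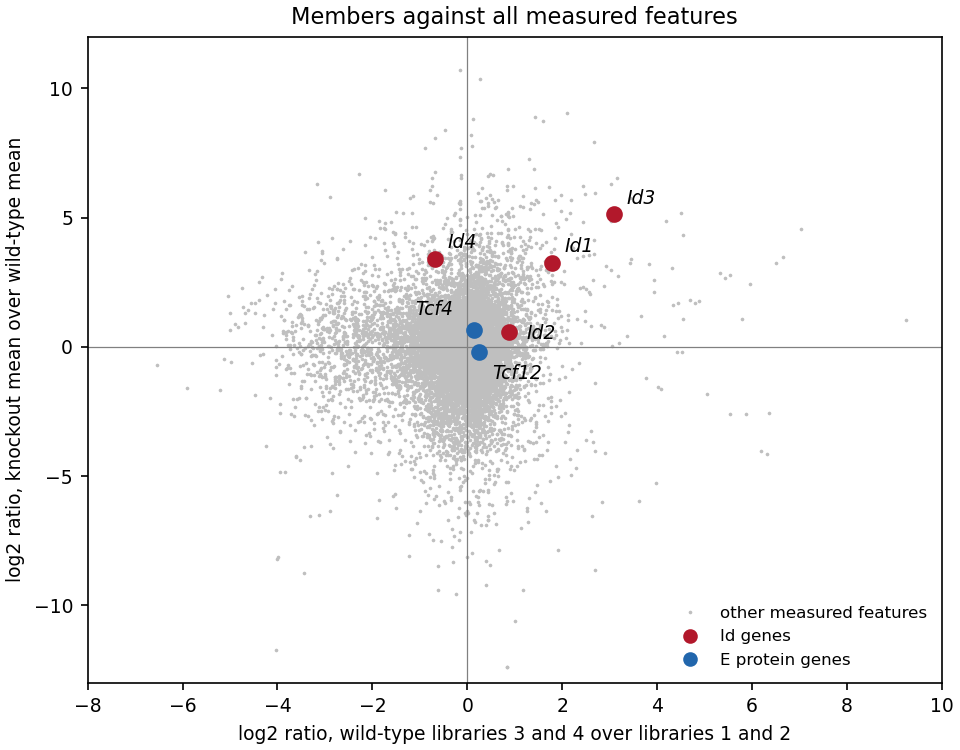
Each measured feature by its log2 ratio between wild-type libraries 3 and 4 and libraries 1 and 2 (horizontal axis) and its log2 ratio between the knockout mean and the wild-type mean (vertical axis), with features at 0 left out. Id3 and Id1 lie to the upper right, at 3.08 and 5.13 and at 1.78 and 3.25 on the horizontal and vertical axes, Id4 lies high at -0.68 and 3.42, and Id2, Tcf4 and Tcf12 lie within the cloud.

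The features nearest to each member in these log2 ratios were found among 11392 features with a gene symbol and a mean of at least 50 normalised counts over both arms. Likeness was the Euclidean distance over the 2 ratios, which rest on 2 wild-type pairs and 1 knockout mean, and among so many features some lie near any point. For Id1 they were Bhlhe40, a repressor with a basic helix-loop-helix that binds DNA, at a distance of 0.0956, the transcription factor gene Cebpb, at 0.155, and the kinase gene Sgk1, at 0.252. Id3 had no close neighbour: the cytokine gene Il10 lay at 0.706, Rasl11b at 1.01 and the protocadherin gene Pcdh17 at 1.02. Il10, Rasl11b, Pcdh17 and Id3 itself had wild-type means under 50 and reached the minimum through the knockout arm. Il10 stood at 33.6 normalised counts in pair A and 3.15 in pair B. Pcdh17 stood at 6.64 in pair A and 1.58 in pair B, so the ratios of both between the pairs rest on few reads. Id2 lay near Pde2a, Farp1 and Aldh1a1, all within 0.0520. Tcf4 lay near Rcl1, Klhl9 and Fem1b, all within 0.0248, and Tcf12 near Capg, Sucla2 and H2-DMa, all within 0.0133. Id4 had a mean of under 50 and was not compared.

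Genes that act around the Id and E proteins were then followed in 5 lists. A list member was measured if it had a mean of at least 10 normalised counts over both arms, and over all 17684 tested features of that level 3.72% were called higher and 4.3% lower. Their median in the authors' deposited table was -0.04 on the log2 scale, and each list's median below is of that same quantity. Genes near silence in wild type reach that level through the knockout arm alone, so the counts describe the lists and are no test of them. Chrd, a BMP antagonist, and Hey2, of the HES and HEY family, were called higher as well but had means under 10 and are not counted.

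Ligands and inhibitors of the BMP pathway were among the called genes. Of 30 listed BMP and Smad genes, 20 were measured, 4 were called higher and 0 lower, and 16 lay above 0. The list's median log2 fold change was 1.35 by the authors' deposited table. The ligand gene Bmp2 stood at 122 normalised counts in the knockout arm, against 6.63 in pair A and 3.67 in pair B. The ligand gene Bmp4 stood at 2899 in the knockout arm, against 524 in pair A and 233 in pair B. The authors' deposited table gives Bmp2 an 18.5-fold rise (adjusted p 0.000895) and Bmp4 a 7.62-fold rise (adjusted p 0.0174).

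The inhibitory Smads, which are induced by the pathway and damp it, were the other 2 calls. Smad7 stood at 9081 normalised counts in the knockout arm, against 1226 in pair A and 758 in pair B. Smad6 stood at 2339 in the knockout arm, against 308 in pair A and 250 in pair B. Their rises in the authors' deposited table were 9.14-fold and 8.34-fold, with adjusted p-values of 0.00871 and 0.0124. For all 4 called genes the knockout mean lay above both pairs. Receptors and signal-carrying Smads were not called: on the log2 scale of the authors' deposited table, the type II receptor gene Bmpr2 lay at 2.04 (adjusted p 0.141), the type I receptor gene Bmpr1a at -1.77 (0.238), Smad1 at 0.77 (0.770) and Smad5 at -0.09 (0.996).

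Most of the partners with which E proteins can bind DNA were not measured. Of 45 listed helix-loop-helix partners, 44 were matched and 7 measured, with 1 called higher and 1 lower. The list's median was 0.54 by the authors' deposited table. The stem cell partner Tal1 stood at 20352 normalised counts in the knockout arm, against 15269 in pair A and 12743 in pair B. Its relative Lyl1 stood at 3215 in the knockout arm, against 7184 in pair A and 6474 in pair B. Neither was called, with log2 fold changes of 0.54 and -1.09 and adjusted p-values of 0.876 and 0.595 in the authors' deposited table. The called genes had low counts: Scx, a tendon factor, stood at 141 in the knockout arm, 22.7 in pair A and 20.5 in pair B. Mesp2, a factor of somite formation, stood at 1.65 in the knockout arm, 53.1 in pair A and 34.6 in pair B.

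Cofactors that join E protein complexes included 4 called lower and 0 higher among 17 measured of 18. The list's median was -0.26 by the authors' deposited table. The corepressor Cbfa2t3, also called ETO2, stood at 1413 normalised counts in the knockout arm, against 13625 in pair A and 12391 in pair B. Its relative Runx1t1 stood at 22.4 in the knockout arm, against 709 in pair A and 374 in pair B. The adaptor gene Ldb2 stood at 6.26 in the knockout arm, against 112 in pair A and 46.1 in pair B. The erythroid factor gene Gata1 stood at 45.2 in the knockout arm, against 1428 in pair A and 1492 in pair B. Their falls in the authors' deposited table were 9.20-fold for Cbfa2t3 (adjusted p 0.00854), 22.6-fold for Runx1t1, 10.6-fold for Ldb2 and 31.5-fold for Gata1. The bridging factors Lmo2 and Ldb1 were not called, at 0.16 and 0.96 on the log2 scale by the authors' deposited table.

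The list of HES and HEY repressors, helix-loop-helix proteins that bind DNA themselves, includes Notch targets. It also holds Bhlhe40 and Bhlhe41, helix-loop-helix repressors that are neither HES nor HEY proteins. Of 12 listed genes 8 were measured, and 4, with Bhlhe40 among them, were called higher and 0 lower. The list's median was 2.62 by the authors' deposited table. Hey1 stood at 1903 normalised counts in the knockout arm, against 37.4 in pair A and 4.20 in pair B. Bhlhe40 stood at 15895 in the knockout arm, against 2418 in pair A and 729 in pair B. Heyl stood at 102 in the knockout arm, against 10.4 in pair A and 9.98 in pair B. Hes7, an oscillating gene of the somite clock, stood at 87.7 in the knockout arm, against 3.32 in pair A and 15.7 in pair B. Hes1, a main Notch target, was not called: it stood at 3198 in the knockout arm, against 2004 in pair A and 98.6 in pair B, and the wild-type pairs were further apart than the knockout mean and pair A.

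Lymphoid genes that E proteins are known to activate included some that were called lower. Of 26 listed genes 18 were measured, and 6 were called lower and 0 higher, while 7 lay above 0. Hes1, which is also on the list of HES and HEY repressors, is counted here too and lay highest, at 1.60. The list's median was -1.51 by the authors' deposited table. Dntt, the polymerase that adds bases at antigen receptor joints, stood at 7.91 normalised counts in the knockout arm, against 133 in pair A and 102 in pair B. The interleukin receptor gene Il2ra stood at 1.98 in the knockout arm, against 52.1 in pair A and 10.5 in pair B. The recombinase gene Rag1 had 1 read in the knockout arm, and its ratio of wild type to knockout has a counting interval of 12.7 to 2892. Il7r had 0 reads there, against 108 normalised counts in pair A and 26.2 in pair B. Taking 3 counts over the arm as the floor, it was at least 109.6-fold lower than in pair A and at least 26.5-fold lower than in pair B. All 6 called genes lay below both pairs, but their wild-type levels were low, and only 1 of them had a mean of at least 50 over both arms. Notch1 and Foxo1, which E proteins also act on, were not called, at 1.44 and 1.45 on the log2 scale by the authors' deposited table.

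**Figure D4:**
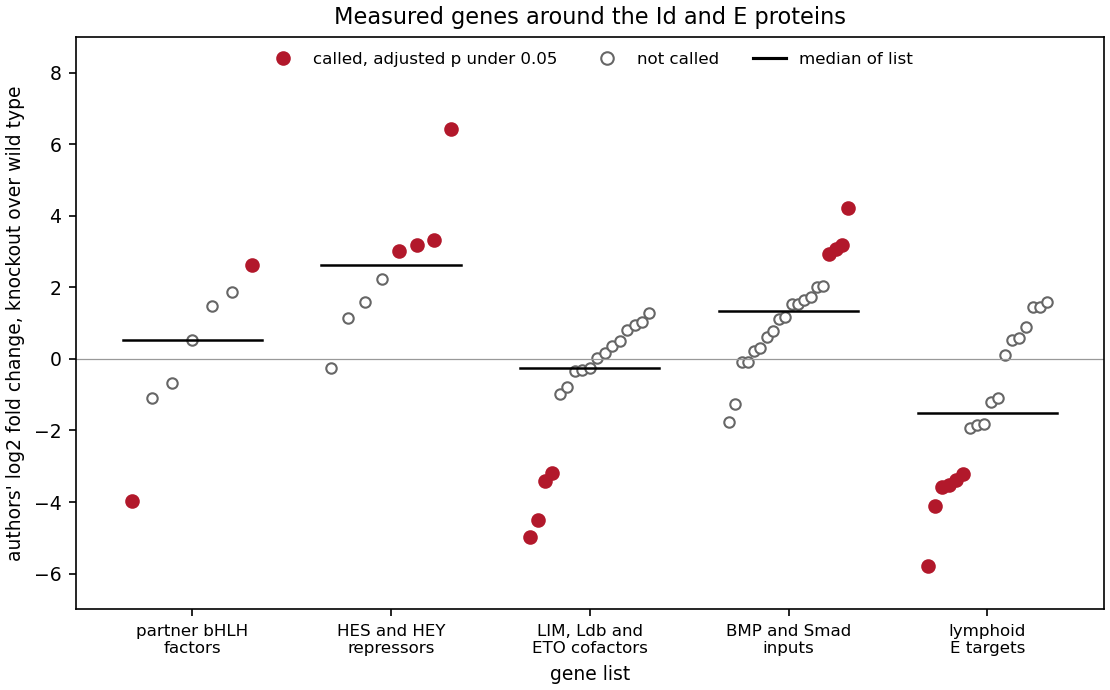
Authors' log2 fold change, knockout over wild type, of each measured gene in 5 lists of genes around the Id and E proteins, with called genes filled, other genes open and the median of each list as a line. All called genes of the BMP and Smad list and of the HES and HEY list are above 0, and all called genes of the cofactor list and of the lymphoid list are below 0.

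Other cells that a sort could carry along also hold Id transcripts, so their markers are given beside the Id values. In bulk RNA, fewer cells of a type and less RNA per cell cannot be told apart. The 6 endothelial markers summed to 7162 normalised counts in the knockout arm, against 11553 in pair A and 7819 in pair B, with 0 called in either direction. The sum is mostly Tek and Pecam1. Plvap, at 169 in the knockout arm, 55.8 in pair A and 69.8 in pair B, had a knockout mean above both pairs. So had Cdh5, at 46.5 in the knockout arm, 35.98 in pair A and 19.9 in pair B. Emcn, at 304 in the knockout arm, 1520 in pair A and 834 in pair B, lay below both pairs. So did Pecam1, at 2506 in the knockout arm, 3595 in pair A and 2979 in pair B. Kdr and Tek lay between the pairs. The 5 matched macrophage markers summed to 849 in the knockout arm, against 684 in pair A and 1424 in pair B, with 3 called lower. In that sum Cd68 alone held 555 in the knockout arm, 174 in pair A and 246 in pair B. The called genes were C1qa, C1qb and Emr1, at 15.8, 13.2 and 15.8 in the knockout arm. In pair A they stood at 62.1, 70.5 and 77.2, and in pair B at 214, 259 and 161. Vcam1 also lay below both pairs. The neutrophil sum of 24198 in the knockout arm lay between 5510 in pair A and 37984 in pair B. The B cell sum was 368 in the knockout arm, with Pax5 and Ms4a1 at 0, against 1310 in pair A and 1095 in pair B. The T cell sum was 769 in the knockout arm, with Cd3e at 0, against 539 in pair A and 500.0 in pair B. Of it Lck alone held 742 in the knockout arm, 428 in pair A and 378 in pair B, while Cd4 stood at 22.4 in the knockout arm, 57.7 in pair A and 119 in pair B. Mast cell and basophil markers summed to 96.2 in the knockout arm, 1596 in pair A and 888 in pair B. Erythroid markers summed to 448 in the knockout arm, 5104 in pair A and 6820 in pair B, and megakaryocyte markers to 6325 in the knockout arm, 21686 in pair A and 24458 in pair B. None of the 9 marker lists, the HSC list included, held a gene called higher in the knockout arm. Called lower were 5 of 6 erythroid, 4 of 5 mast cell and basophil, 2 of 5 megakaryocyte and 1 of 6 B cell markers. Neutrophil and T cell markers had 0 called lower. Among all 21778 features tested, 3.7% were called lower and 3.15% higher. The part of other cells in the Id values was not tested beyond these sums.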

How the data were processed

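Reads per feature were deposited by the authors as whole counts for each wild-type library. The same table gives a signal headed FPKM for each library, which the authors deposited and which equals the count per kb of exon over a constant of 50. Exon lengths were taken from it and nothing else. The authors' deposited mean count of the knockout arm is an unscaled average over 4 libraries. A log2 fold change and a p-value were also deposited by the authors, and the p-value is read as adjusted because many features share a value. Per the submitters' processing notes, mm9 was the build and DESeq a tool, of unstated role. Not given in the sources used here were the aligner, the counter and the annotation. The kit as named does not mark strand. A further 8 of the 30 columns give single-library values that match no sample here, and they stayed unused.

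Size factors, by the median of ratios, ran from 0.951 to 1.065 over the wild-type libraries. The knockout mean was placed on that scale by the median offset of 0.399 (log2) between the authors' fold change and the raw ratio, over 11936 features (SD 0.003). No test between arms was run, since the wild-type arm is 1 biological replicate per the labels. A call is taken from the authors' deposited table, where its adjusted p is under 0.05. That adjusted p has the same limit, because it rests on the same wild-type libraries. If the labels hold, it does not measure a spread between mice. With 3 counts as the floor, a gene without reads in a library may still reach 0.0737 CPM at these depths. Library agreement used a chi-square test per feature with at least 20 reads. Scripts were tested on simulated data. The members, lists and alternatives were chosen with earlier results of these data known. Named genes were the 6 members, Tcf3, up to 4 measured and called genes per list with the largest changes and the 3 nearest features of each member with a mean of at least 50. Other genes, such as Tal1, Lyl1, Bmpr2, Hes1 and Notch1, were named after their values were seen. Junb has 2 rows, one shared with AK006748, so the immediate early list of 24 genes has 25 rows. Alternatives were TMM factors (edgeR 4.0.16 in R 4.3.3), library totals, other thresholds and minimum levels, and leaving out libraries, with Python 3.11.15 for the rest.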

Additional observations from a re-analysis of the deposited data

How the results depend on the processing

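Of 188 values recomputed under another setting, 171 moved by less than the spread or counting error, or by no more than 1.5 times for counts of calls. Set against libraries 1 and 2 alone, the log2 ratio of Id3 was 7.37, against 5.13 with all libraries. Scaled by library totals, the log2 ratio of Tcf4 was 0.32 and that of Tcf12 -0.54, against 0.66 and -0.21, and their log2 differences between the wild-type pairs were 0.068 and 0.19. Leaving out 1 library at a time, the difference of Id4 between the pairs ranged from -2.16 to 0.033. Without division by length, the Id sum was 20.2% of Tcf4 plus Tcf12 in the knockout arm and 4.11% in wild type, and with Tcf3 the knockout value was 83.5%. The settings of this sum were added after the data were seen. At an adjusted p under 0.01, 2 of the 6 members were called higher, without Id4. Called higher there were 0 partner factors, 2 BMP and Smad genes, 2 from the HES and HEY list and 2 immediate early rows. Called lower there were 3 lymphoid genes and 1 immediate early row. With a minimum of 50 normalised counts, 0 partner factors and 1 lymphoid gene were called lower. No paired analysis was possible because the labels give a single group. Depth limits Id4 in wild type, where 2 to 9 reads per library were counted, and Id3 in libraries 1 and 2, with 9 and 11 reads.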
